A study of Mus musculus with 8 samples.

Results

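The BCL2 family genes Bcl2, Bcl2l1, Mcl1, Bcl2a1a, Bcl2a1b, Bcl2a1d, Bax, Bak1, Bcl2l11 and Bid were followed in RNA-Seq of mouse blood monocytes (MCs). They were taken from the expression table by gene symbol, and all 10 were present among its 16486 genes. The table held 8 libraries of MCs that were sorted from blood as CD11b+Ly6G-Ly6Chigh or CD11b+Ly6G-Ly6Clow cells, 4 of each subset. Control (CT) mice, C57/BL6, gave 2 libraries per subset. Type 1 diabetic (T1DM) mice, C57/BL6 given streptozotocin, a toxin of insulin-producing cells, by intraperitoneal injection of 50 mg/kg/day for 5 days at 8 weeks of age, gave 1 library per subset. Type 2 diabetic (T2DM) mice, db/db mice homozygous for a leptin receptor mutation, also gave 1 library per subset. All mice were male, ate normal chow and were bled at 20 to 22 weeks of age, and the RNA of 5 mice was pooled per group. The CT pools were sequenced in duplicate, so the spread between the CT libraries may be technical. The p-values of CT libraries alone then measure only that spread. The fit of the subsets over all 8 libraries, with mouse group as a covariate, has 4 residual degrees of freedom, some of them from the CT duplicates. It also takes in how the subset difference varies between mouse groups, but not differences in level, which the covariate removes. The fits of diabetic against CT mice also take in differences between T1DM and T2DM libraries. A NextSeq 500 read the CT libraries and a HiSeq 4000 the diabetic ones, and any difference between diabetic and CT mice therefore cannot be told apart from one between sequencers.

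BCL2 family proteins decide whether the outer mitochondrial membrane is permeabilized, the step that releases cytochrome c and commits a cell to apoptosis. Anti-apoptotic members (Bcl2, Bcl2l1, which encodes BCL-XL, Mcl1, and the Bcl2a1 genes, which encode A1) hold the pore-forming effectors Bax and Bak1 in check, and BH3-only members such as Bcl2l11 (BIM) and Bid antagonize the former or activate the latter. Bcl2 is known for supporting the survival of Ly6Clow blood MCs, and Bcl2 and A1 also serve survival in lymphocytes.

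The mouse has several A1 genes that are near-copies of each other on chromosome 9. In GENCODE M21 (GRCm38), Bcl2a1a lay at chr9:88956900-88962419 on the plus strand, Bcl2a1b at chr9:89199209-89207827 on the plus strand and Bcl2a1d at chr9:88723285-88731914 on the minus strand. Their reading frames were each 519 bases long, and 11 bases differed between Bcl2a1a and Bcl2a1b, 7 between Bcl2a1a and Bcl2a1d and 6 between Bcl2a1b and Bcl2a1d. The first 90 bases of the frame are printed because 6 of the 12 positions that vary among the 3 genes fall there. Capitals mark the bases that vary.
Bcl2a1a: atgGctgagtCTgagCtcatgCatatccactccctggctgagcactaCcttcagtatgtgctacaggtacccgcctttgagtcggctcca
Bcl2a1b: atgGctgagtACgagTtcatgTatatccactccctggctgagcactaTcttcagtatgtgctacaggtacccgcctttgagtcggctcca
Bcl2a1d: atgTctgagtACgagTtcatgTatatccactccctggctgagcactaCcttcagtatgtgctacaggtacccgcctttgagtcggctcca

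This likeness bears on every value of these 3 genes. Of all stretches of 31 bases in their transcripts, the length Kallisto uses by default to match reads to transcripts, 79.6% of Bcl2a1a, 88.8% of Bcl2a1b and 89.1% of Bcl2a1d also occurred in another gene. The split of reads among them is therefore an estimate, and their sum is given beside the single values. Bcl2a1b also overlaps Gm29094, a gene of the table on the same strand. Among the other members the shared part was 20.4% for Bak1, all of it with the opposite-strand gene Ggnbp1, and 16.9% for Bid, all of it with the opposite-strand gene Bcl2l13. Both partners are in the table, and whether the quantification used strand is not given in the sources used here. The remaining members shared between 0.0214% (Bcl2l1) and 11.1% (Bax), and for Bax the part shared with genes of the table was 1.21%.

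The A1 genes were also near-identical upstream of their starts. The windows are printed because the 3 genes differed between the subsets in the same direction, and capitals mark GAGGAAGT, a sequence bound by the ETS factor PU.1 of myeloid cells and B cells. The windows were read from the RefSeq promoters of GRCm38.p6 and end before the annotated starts. The first is Bcl2a1a, chr9:88956714-88956843 on the plus strand, to which the window of Bcl2a1b at chr9:89199023-89199152 was 100% identical. The second is Bcl2a1d, chr9:88731927-88732050 on the minus strand, which was 94.6% identical to the first, with 1 mismatch and 6 gap positions in the alignment.
Bcl2a1a: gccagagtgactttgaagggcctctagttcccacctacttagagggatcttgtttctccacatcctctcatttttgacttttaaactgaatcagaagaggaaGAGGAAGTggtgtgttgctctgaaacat
Bcl2a1d: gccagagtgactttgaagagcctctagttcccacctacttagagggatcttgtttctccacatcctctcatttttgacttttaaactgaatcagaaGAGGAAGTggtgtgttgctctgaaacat

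Within the 250 bases before a start, searched on both strands, 2.44% of 32851 RefSeq promoters held GAGGAAGT, among them those of Bcl2a1a, Bcl2a1b and Bcl2a1d on the gene's own strand and that of Bak1 on the opposite strand. TGANTCA, in which N is any base, stood in 6.75% of promoters and in the same 3 A1 genes, where it read TGAATCA. The AP-1 motif has C or G in place of N, so these matches are not the AP-1 motif itself. The cyclic AMP response element core TGACGT stood in 6.47% of promoters and in that of Bcl2, and TTGCNNAA, the C/EBP motif, in 9.56% and in that of Bid. A match is a run of letters and not a measured binding site.

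The values are deposited normalized log2 expression values. The study's methods name both gene counts and TPM, a unit scaled to gene length and depth, as output of tximport, and do not say which of them the deposited values came from, so levels were compared between libraries and not between genes. The linear values summed to 838696 to 1090019 per library, and TPM add up to the same total in every library before filtering. The methods give 40000000 reads per sample, but the reads behind a single value are unknown. The 2 CT libraries of a subset correlated at 0.968 across genes in both subsets, and the median absolute difference between them was 0.257 in Ly6Chigh and 0.247 in Ly6Clow MCs on the log2 scale. The Ly6Chigh markers separated the sorted subsets clearly and the Ly6Clow markers only in part. Ly6c2 was 8.56 to 8.72 in Ly6Chigh and 2.69 to 4.07 in Ly6Clow MCs, and 5 of 6 Ly6Chigh genes were called higher in Ly6Chigh MCs. Of 7 Ly6Clow genes, Cd300e (1.64 to 3.54 in Ly6Chigh against 7.32 to 7.87 in Ly6Clow MCs), Cd36 and Treml4 were called lower in Ly6Chigh MCs. Nr4a1, the defining factor of Ly6Clow MCs, overlapped at 7.03 to 8.11 against 7.80 to 8.28, Itgal differed by -0.06 on average, and Cx3cr1 was on average 0.60 higher in Ly6Chigh MCs (7.97 to 8.63 against 7.72 to 8.14), so the sum of the 7 genes differed by only -0.55. Genes of other cells were present. All 12 B cell genes were called lower in Ly6Chigh MCs, and Cd79a was 8.56 to 9.08 in Ly6Clow against 2.68 to 4.17 in Ly6Chigh MCs. Of 7 NK cell genes, 6 were called lower in Ly6Chigh MCs, as were 2 of 11 T cell and 2 of 5 dendritic cell genes. No neutrophil, platelet, erythroid or plasmacytoid dendritic cell gene was called by limma. Of these, 2 of 7 neutrophil and 2 of 3 plasmacytoid dendritic cell genes had an unadjusted p under 0.05. In the fit behind these counts, with mouse group as a covariate, so did 7117 of all 16486 genes.

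Survival genes of the anti-apoptotic group separated the subsets. To be called, a gene needed more than 2-fold difference (absolute log2FC above 1, with log2FC as Ly6Chigh minus Ly6Clow) and an adjusted p under 0.01. In the fit of all 8 libraries with mouse group as a covariate, Bcl2, Bcl2a1a, Bcl2a1b and Bcl2a1d were called lower in Ly6Chigh MCs, by 4.38- to 7.74-fold, and no member was called higher. Without the T1DM libraries Bcl2l11 was called higher (log2FC 1.05, adjusted p = 0.00902). Thus 4 of 10 members were called, where 12.1% of all genes were called, 6.76% lower and 5.37% higher. Bcl2a1a, Bcl2a1b and Bcl2a1d are near-copies whose reads were split by estimate, so counts of members do not hold them as separate results. Mcl1, Bak1, Bcl2l11 and Bid passed the adjusted p-value in the opposite direction with less than 2-fold difference, as 11.4% of all genes did in that direction at any fold. The median log2FC was 0.40 over the 10 members and -0.08 over all genes. In the libraries themselves, 9 of 10 members did not overlap between the subsets, 5 with Ly6Chigh and 4 with Ly6Clow MCs above, and 32.8% of all genes did not overlap (16.4% and 16.3%).

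**Figure D1:**
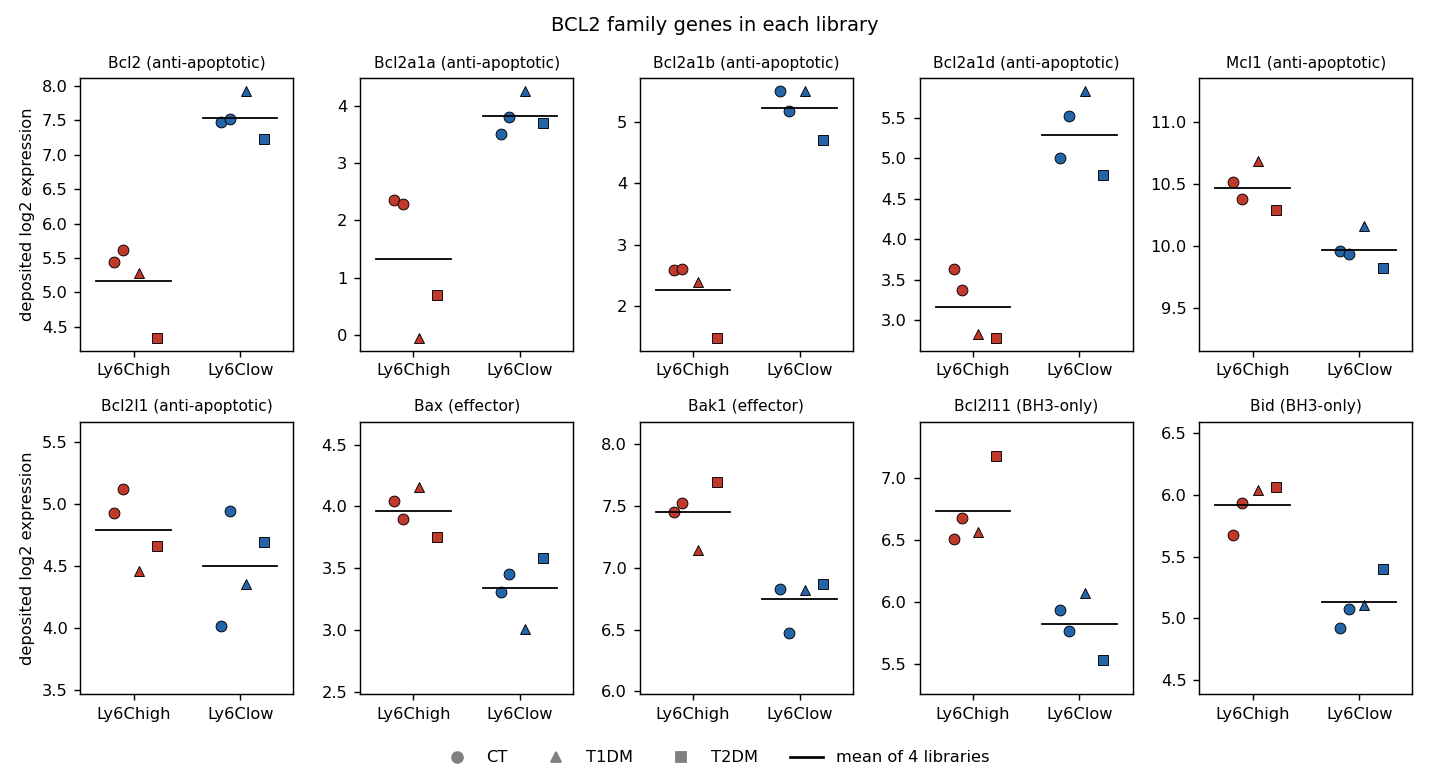
Deposited log2 expression (vertical axis, scaled separately for each gene and not starting at 0) of the 10 BCL2 family genes in each of 8 libraries by MC subset (horizontal axis), with CT as circles, T1DM as triangles and T2DM as squares. Bars are means of 4 libraries, and Bcl2l1 is the only gene of the 10 whose subsets overlap.

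Bcl2 had the log2 values 5.44 and 5.62 in the CT Ly6Chigh libraries, 5.28 in T1DM Ly6Chigh and 4.33 in T2DM Ly6Chigh MCs. The Ly6Clow libraries held 7.48 and 7.52 for CT, 7.93 for T1DM and 7.23 for T2DM mice. All 4 Ly6Clow libraries lay above all 4 Ly6Chigh libraries, with a gap of 1.61 between the nearest. The log2FC over mouse groups was -2.37 (SE 0.17, adjusted p = 1.73e-05), 5.18-fold lower in Ly6Chigh MCs. In CT mice alone it was -1.97 (SE 0.09, adjusted p = 0.00519). That call was lost without the variance trend (adjusted p = 0.0178), with the replicate number as a block (adjusted p = 0.0291) and without any one CT library (adjusted p = 0.0803 to 0.0847). The order of the groups was T1DM Ly6Clow, CT Ly6Clow, T2DM Ly6Clow, CT Ly6Chigh, T1DM Ly6Chigh and T2DM Ly6Chigh. Of these neighbours, CT and T1DM Ly6Chigh MCs lay closest, since T1DM was 0.25 below the CT mean and the CT libraries were 0.18 apart.

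The B cell and NK cell markers moved with Bcl2, and so did the T cell markers as a sum. The linear values of the 12 B cell genes summed to 12.19 to 12.51 on the log2 scale in Ly6Clow and to 8.13 to 9.10 in Ly6Chigh MCs, and the 7 NK cell genes to 7.02 to 9.57 and 4.50 to 6.61. The 11 T cell genes summed to 6.05 to 6.43 in Ly6Clow and 4.67 to 5.53 in Ly6Chigh MCs, also without overlap. Of the 11, 10 were on average lower in Ly6Chigh MCs, but only Lck (-2.55) and Lef1 (-1.41) were called. Cd3e (-0.45), Cd3d (-0.12), Trac (-0.15) and Cd8a (-0.27) overlapped between the subsets, whereas Cd3g (-2.1) did not. Cd8b1 was on average 0.1 higher in Ly6Chigh MCs. The part of these cells in the Bcl2 difference was not tested. The T2DM Ly6Clow library had the highest B cell sum, 12.51, and the lowest Bcl2 of the 4 Ly6Clow libraries, 7.23, and its NK cell sum was the lowest of them at 7.02. In the T2DM Ly6Chigh library, the lowest in Bcl2 of all libraries, the B cell sum, 8.13, and the NK cell sum, 4.50, were also the lowest. In bulk RNA, fewer cells of a type and less RNA per cell cannot be told apart.

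**Figure D2:**
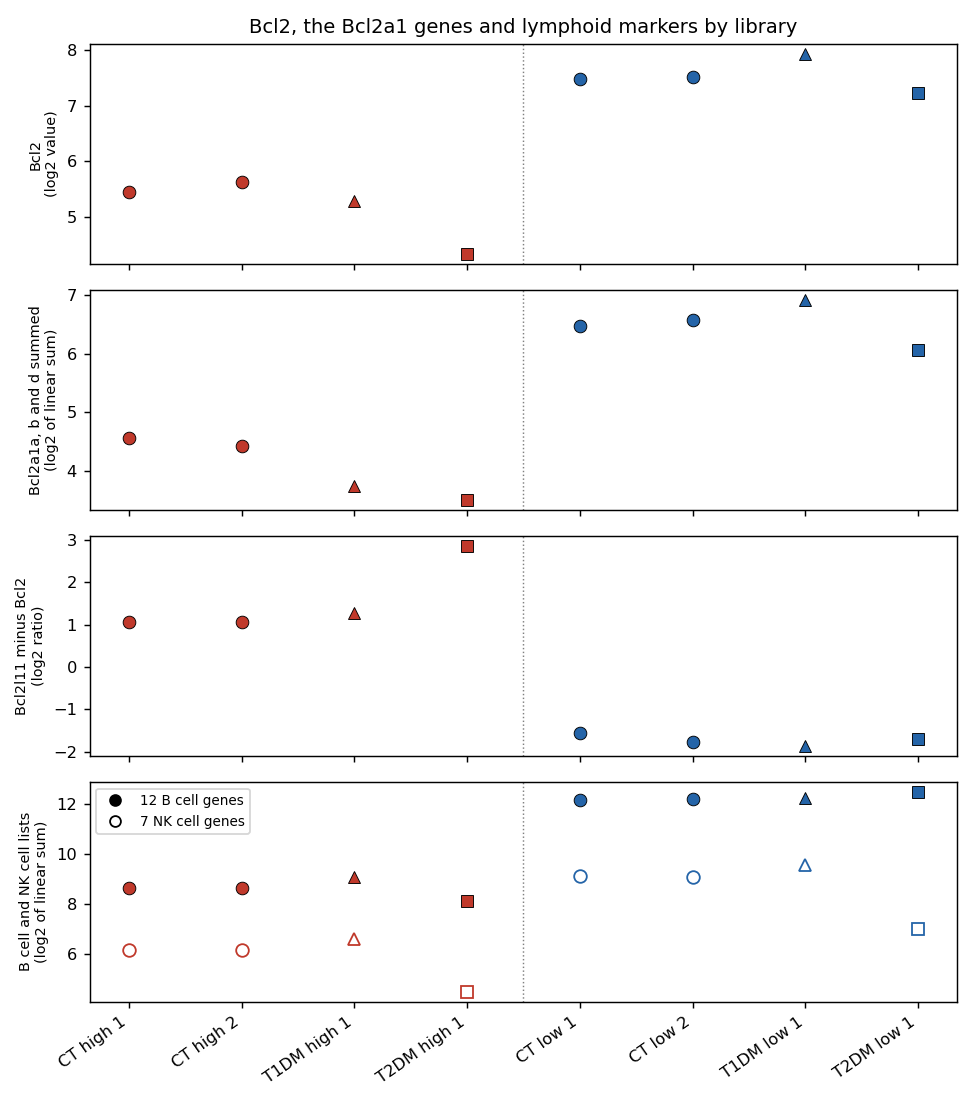
From top to bottom, log2 Bcl2, the log2 of the summed linear values of Bcl2a1a, Bcl2a1b and Bcl2a1d, the log2 ratio of Bcl2l11 to Bcl2, and the log2 sums of 12 B cell (filled) and 7 NK cell (open) genes in each library, Ly6Chigh in red and Ly6Clow in blue, with CT as circles, T1DM as triangles and T2DM as squares. The ratio is higher in all 4 Ly6Chigh than in all 4 Ly6Clow libraries, and both marker sums are higher in the Ly6Clow libraries.

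The A1 genes, targets of NF-kB that shield activated leukocytes from apoptosis, followed the direction of Bcl2. Among Ly6Chigh libraries, Bcl2a1b was 2.59 and 2.60 for CT, 2.39 for T1DM and 1.48 for T2DM mice. Among Ly6Clow libraries it was 5.50 and 5.18 for CT, 5.50 for T1DM and 4.70 for T2DM mice. Its subsets were 2.10 apart at the nearest, the widest gap of the 10 members, and the log2FC was -2.95 (SE 0.18, adjusted p = 8.82e-06), or 7.74-fold lower in Ly6Chigh MCs. For Bcl2a1d, the Ly6Chigh libraries held 3.63 and 3.38 (CT), 2.83 (T1DM) and 2.78 (T2DM), and the Ly6Clow libraries 5.00 and 5.52 (CT), 5.83 (T1DM) and 4.79 (T2DM). The subsets again did not overlap, and the log2FC was -2.13 (SE 0.24, adjusted p = 0.000241).

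Bcl2a1a varied most among Ly6Chigh libraries. It was 2.36 and 2.29 for CT but -0.06 for T1DM and 0.69 for T2DM in Ly6Chigh MCs, and 3.51 and 3.80 (CT), 4.26 (T1DM) and 3.69 (T2DM) in Ly6Clow MCs. All 4 Ly6Clow values lay above all 4 Ly6Chigh values. The difference over mouse groups was -2.50 (SE 0.48, adjusted p = 0.00405). This call was lost without the T1DM libraries (log2FC -1.89, adjusted p = 0.0123), without the T2DM libraries (-2.33, adjusted p = 0.0238), in a fit without the variance trend (-2.50, adjusted p = 0.0189) and without CT Ly6Clow replicate 2 (-2.67, adjusted p = 0.0106). In CT mice alone, only Bcl2 and Bcl2a1b of the 10 members were called, both lower in Ly6Chigh MCs, where 3.52% of all genes were called, 1.43% lower and 2.1% higher. There Bcl2a1b had a log2FC of -2.74 (SE 0.18, adjusted p = 0.00739), Bcl2a1d of -1.75 (SE 0.24, adjusted p = 0.0245) and Bcl2a1a of -1.33 (SE 0.21, adjusted p = 0.0301). With the low-value filter Bcl2a1d was called too (adjusted p = 0.00736). Bcl2a1b was not called without the variance trend (adjusted p = 0.0173) or with the replicate block (adjusted p = 0.0334). Leaving out any of the 4 CT libraries left no gene called in CT mice, and the member values then ran from -2.06 to -1.88 for Bcl2 and from -2.90 to -2.58 for Bcl2a1b.

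Summed over the 3 near-copies, A1 expression does not depend on how reads were split among those 3. The log2 of the sum was 4.56 and 4.42 (CT), 3.73 (T1DM) and 3.50 (T2DM) in Ly6Chigh MCs, and 6.47 and 6.58 (CT), 6.92 (T1DM) and 6.06 (T2DM) in Ly6Clow MCs. The subsets did not overlap, and the mean difference was -2.46, or 5.49-fold lower in Ly6Chigh MCs. An exact two-sided permutation test of 4 against 4 libraries gave p = 0.0286, the smallest that its 70 arrangements allow. That test takes the CT duplicates as separate units, although they may share a pool, and it ignores the mouse group. With subset labels exchanged only within CT, T1DM and T2DM libraries, a choice made after seeing the data, the exact two-sided permutation p was 0.0833, the smallest that its 24 arrangements allow, so this test could not reach 0.05. With the overlapping Gm29094 added, a choice made after seeing the data, the difference was -2.43. The share of the genes in the sum differed between libraries. Bcl2a1a made up 7.20% of the sum in the T1DM Ly6Chigh library against 21.8% and 22.8% in CT Ly6Chigh MCs. The B cell, NK cell and T cell sums given above move with A1 as they do with Bcl2, and their part in it was not tested.

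Mcl1, which encodes a short-lived protein, went the other way. Its values were 10.52 and 10.38 (CT), 10.69 (T1DM) and 10.29 (T2DM) in Ly6Chigh MCs and 9.96 and 9.94 (CT), 10.16 (T1DM) and 9.82 (T2DM) in Ly6Clow MCs. The subsets did not overlap but were only 0.13 apart at the nearest. The log2FC was 0.50 (SE 0.07, adjusted p = 0.000524), or 1.41-fold, and after quantile normalization it was 0.045 (adjusted p = 0.664). With all libraries scaled to the same linear sum it was 0.20 (adjusted p = 0.0462), and without the variance trend its adjusted p was 0.0238. That scaling, added after seeing the data, moves the median log2FC of all genes from -0.08 to -0.38.

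Bcl2l1 showed no subset difference that passed the test. It was 4.93 and 5.12 (CT), 4.46 (T1DM) and 4.66 (T2DM) in Ly6Chigh MCs and 4.01 and 4.94 (CT), 4.35 (T1DM) and 4.69 (T2DM) in Ly6Clow MCs. The subsets overlapped, and the CT Ly6Clow libraries alone were 0.93 apart. The log2FC over mouse groups was 0.30 (95% interval -0.21 to 0.80, adjusted p = 0.35), which leaves room for a difference in either direction. Red cell transcripts, which belong to cells in which BCL-XL is a known survival factor, were abundant in every library. The 6 erythroid genes summed to 14.02 to 15.21 in Ly6Chigh and 14.01 to 14.94 in Ly6Clow MCs. The part of red cells in the Bcl2l1 values was not tested.

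The effectors and BH3-only genes were higher in Ly6Chigh MCs in every library pair, by less than 2-fold on average. Bak1, the effector resident in the mitochondrial membrane, was 7.45 and 7.52 (CT), 7.14 (T1DM) and 7.69 (T2DM) in Ly6Chigh MCs, and 6.83 and 6.47 (CT), 6.82 (T1DM) and 6.87 (T2DM) in Ly6Clow MCs. The log2FC was 0.71 (SE 0.13, adjusted p = 0.00275). Bax, the effector that sits in the cytosol until activated, was 4.04 and 3.90 (CT), 4.16 (T1DM) and 3.75 (T2DM) in Ly6Chigh MCs, and 3.31 and 3.45 (CT), 3.01 (T1DM) and 3.58 (T2DM) in Ly6Clow MCs. The subsets did not overlap, but the log2FC of 0.63 (SE 0.20, adjusted p = 0.0445) missed the threshold.

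Bcl2l11, a direct antagonist of all anti-apoptotic members, was 6.51 and 6.68 (CT), 6.56 (T1DM) and 7.18 (T2DM) in Ly6Chigh MCs, and 5.93 and 5.76 (CT), 6.07 (T1DM) and 5.53 (T2DM) in Ly6Clow MCs. The log2FC was 0.91 (SE 0.18, adjusted p = 0.00458), or 1.88-fold. Bid, which links death receptors to mitochondria once cut by caspase 8, was 5.67 and 5.93 (CT), 6.04 (T1DM) and 6.06 (T2DM) in Ly6Chigh MCs and 4.92 and 5.08 (CT), 5.11 (T1DM) and 5.40 (T2DM) in Ly6Clow MCs. Its log2FC was 0.80 (SE 0.12, adjusted p = 0.00113). The calls by p-value in this group were less firm than those of Bcl2 and the A1 genes other than Bcl2a1a. With equal linear sums the direction stayed, but Bak1 (0.41, adjusted p = 0.0277), Bcl2l11 (0.61, adjusted p = 0.019), Bid (0.50, adjusted p = 0.0133) and Bax (0.33, adjusted p = 0.243) did not pass, whereas Bcl2 and the 3 A1 genes were still called. Without the variance trend, Bak1 (adjusted p = 0.0238) and Bcl2l11 (adjusted p = 0.0273) did not pass either. Bcl2l11 also missed the limit without CT Ly6Chigh replicate 2 (0.91, adjusted p = 0.0153), CT Ly6Clow replicate 1 (0.98, adjusted p = 0.0105) or CT Ly6Clow replicate 2 (0.91, adjusted p = 0.0171), and Bak1 without CT Ly6Chigh replicate 1 (0.69, adjusted p = 0.0116), CT Ly6Chigh replicate 2 (0.67, adjusted p = 0.0118) or the T2DM libraries (0.67, adjusted p = 0.0142). After quantile normalization Bak1 was 0.48 (adjusted p = 0.0163).

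**Figure D3:**
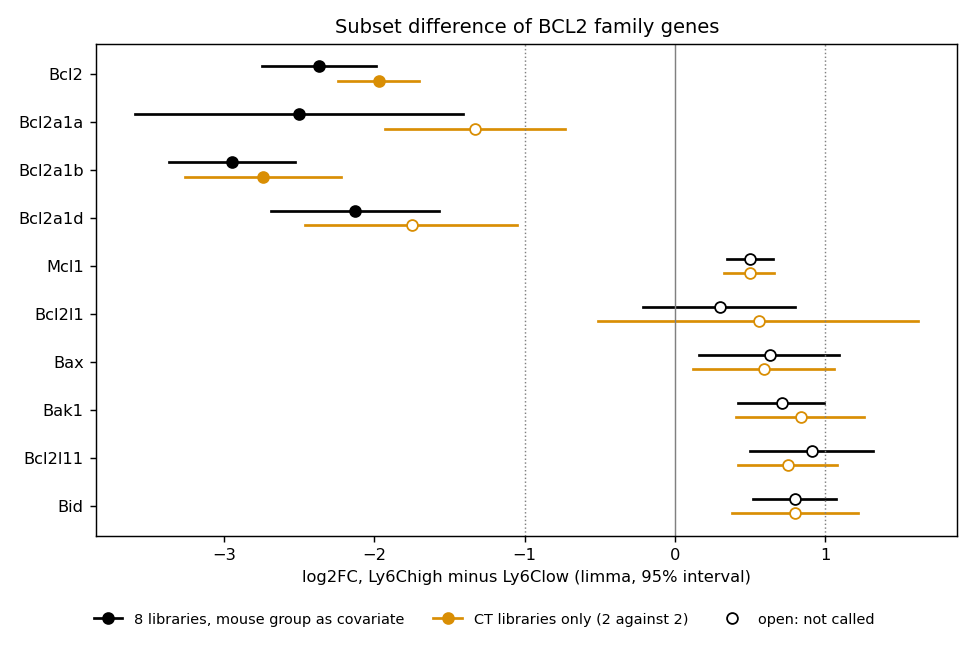
log2FC of Ly6Chigh minus Ly6Clow MCs (horizontal axis) with limma 95% intervals for each BCL2 family gene (vertical axis), from 8 libraries with mouse group as covariate (black) and from CT libraries alone (orange). Filled points passed an adjusted p-value of 0.01 and 2-fold (dotted lines): Bcl2, Bcl2a1a, Bcl2a1b and Bcl2a1d over mouse groups, and Bcl2 and Bcl2a1b in CT mice.

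Ratios within a library do not depend on the scaling between libraries, but they can separate the subsets through either of their genes, and their zero has no meaning of its own. The log2 value of Bcl2l11 minus that of Bcl2 was 1.07 and 1.06 (CT), 1.27 (T1DM) and 2.86 (T2DM) in Ly6Chigh MCs, and -1.55 and -1.76 (CT), -1.86 (T1DM) and -1.69 (T2DM) in Ly6Clow MCs. Every Ly6Chigh library was above every Ly6Clow library, and T2DM Ly6Chigh MCs stood highest. Bak1 minus Bcl2 also separated the subsets, at 1.86 to 3.37 in Ly6Chigh and -1.11 to -0.36 in Ly6Clow MCs. The ratio of Mcl1 to Bcl2l11 did not, being 3.10 to 4.13 in Ly6Chigh and 4.03 to 4.29 in Ly6Clow MCs.

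The genes whose values ran most like Bcl2 over the 8 libraries, among 5225 genes whose log2 values averaged 5 or more, were Gimap4 (Pearson r 0.995), Gramd3 (0.994) and Ablim1 (0.993). The 8 points share libraries and fall into the 2 subsets, and 136 genes had an r above 0.95, so this is a description of the subset pattern only. Gimap4 was 7.29 to 8.04 in Ly6Clow and 2.09 to 4.40 in Ly6Chigh MCs.

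Other genes of the apoptosis machinery were counted as whole lists in the test over mouse groups. Of 16 further BCL2 family genes, 11 were in the table, and 2 were called higher and none lower in Ly6Chigh MCs, with a list median log2FC of 0.42. Over all genes, as given above, 5.37% were called higher and 6.76% lower, with a median of -0.08. Both were BH3-only genes, Bad (1.29, SE 0.17, adjusted p = 0.000534) and Bmf (1.05, SE 0.10, adjusted p = 8.44e-05). Of 13 genes of the mitochondrial pathway downstream of the pore, Apaf1, the scaffold of the apoptosome, was called higher (1.25, SE 0.13, adjusted p = 0.000135) and the list median was 0.46. Of 11 death receptor genes, Fas (1.77, SE 0.24, adjusted p = 0.000684) and the TNF receptor Tnfrsf1a (1.03, SE 0.10, adjusted p = 8.05e-05) were called higher, and the list median was 0.37.

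Fasl, the ligand of Fas and a gene of cytotoxic lymphocytes, was called lower in Ly6Chigh MCs (-2.92, SE 0.37, adjusted p = 0.00044), the same direction as the NK cell sum. None of the 9 inhibitor of apoptosis genes was called by limma in either direction. Of these, 3 had an unadjusted p under 0.05, and Naip2 alone passed the adjusted p-value at any fold (0.69, SE 0.09, adjusted p = 0.000429). Among 11 regulators of family members none was called, and 8 had an unadjusted p under 0.05. Over all genes, 7117 of 16486 had such a p-value in this fit. Cdkn1a (0.99), Bag3 (0.86) and Foxo3 (0.43) passed the adjusted p-value with Ly6Chigh above, and Foxo1 (-0.99), Fbxw7 (-0.60) and Huwe1 (-0.48) with Ly6Clow above. Fbxw7 and Huwe1 encode ubiquitin ligases that act on MCL1 protein, which these data do not measure. These genes were chosen for naming after their values were seen.

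For diabetes, the question was whether the family differed between MCs of diabetic and CT mice. In the test of T1DM and T2DM libraries together against CT with subset as a covariate, limma called no gene of the 16486 (0%) and no member, and 156 genes but no member had an unadjusted p under 0.05. The member closest to it was Bid, with a log2 difference of 0.25 (95% interval -0.03 to 0.54), and the Bid value of every diabetic library was above both CT libraries of its subset. Bcl2 differed by -0.32 (95% interval -0.90 to 0.26), Bcl2a1a by -0.84 (-1.90 to 0.22) and Mcl1 by 0.04 (-0.22 to 0.30). The intervals of Bcl2a1a and of Bcl2a1b (-1.06 to 0.15) reach past 2-fold, so a missed threshold does not show that expression was alike.

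Set against CT libraries singly, each diabetic library could only be described, without a test. In T2DM Ly6Chigh MCs, Bcl2 was 1.20 log2 units below the CT mean (4.33 against 5.44 and 5.62), Bcl2a1a 1.63 below and Bcl2a1b 1.12 below, so 3 of 10 members were past 2-fold downward and none upward. With 1 added on the linear scale, 2 members were past 2-fold, since Bcl2a1a was then -1.20 and Bcl2a1b -0.90. Over all genes, 7.89% were past 2-fold downward and 5.96% upward in that library. Bcl2a1a and Bcl2a1b are near-copies and do not count as separate results here. Of the 10 members, 7 lay below both CT libraries and 3 above, where 35.5% and 38.4% of genes did. The 3 above were Bcl2l11 at 0.59 over the CT mean, Bid at 0.26 and Bak1 at 0.21, all pro-apoptotic, while Bax was 0.22 below. The same library had the highest neutrophil sum over 7 genes, 7.59 against 4.30 and 4.42 in CT Ly6Chigh MCs, and the lowest B cell and NK cell sums, and its T cell sum was 4.77 against 5.39 and 5.53 and its platelet sum over 6 genes 7.57 against 8.78 and 8.65. The subset markers moved too. The 6 Ly6Chigh genes summed to 13.80 against 12.63 and 12.62, and the 7 Ly6Clow genes to 10.33 against 11.25 in both CT libraries, with Ace at 6.75 against 8.82 and 9.0 and Cd300e at 1.64 against 3.29 and 3.54. The part of these cells and markers in the values above was not tested.

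In T1DM Ly6Chigh MCs only Bcl2a1a was past 2-fold, 2.38 log2 units below the CT mean from a value near the low end of the scale (-0.06), and with 1 added on the linear scale it was -1.61. Over all genes, 4.94% were past 2-fold downward and 5.11% upward. Bcl2 (-0.25), Bcl2a1b (-0.21), Bcl2a1d (-0.68), Bcl2l1 (-0.57) and Bak1 (-0.35) were below both CT libraries by less, and Mcl1 (0.24), Bid (0.24) and Bax (0.19) were above both. Thus 6 members were below and 3 above both CT libraries, where 33.5% and 36.3% of all genes were. The summed A1 value was 0.75 below CT in T1DM and 0.99 below CT in T2DM Ly6Chigh MCs. Both comparisons use the same 2 CT libraries. In the T1DM library the T cell sum, 4.67, was the lowest of all libraries (5.39 and 5.53 in CT), and the Ly6Clow marker sum was 10.85 against 11.25 in both CT libraries. Its neutrophil sum was 5.88 against 4.42 and 4.30, its erythroid sum 15.21 against 14.33 and 14.31, and its platelet sum 9.49 against 8.78 and 8.65. The part of these markers in the T1DM values was not tested.

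In Ly6Clow MCs no member was past 2-fold in either model, where 4.03% of genes were past it upward and 4.78% downward in T1DM and 5.09% and 5.68% in T2DM mice. In T1DM Ly6Clow MCs, Bcl2a1a (0.61), Bcl2a1d (0.57), Bcl2 (0.42), Bcl2l11 (0.22), Mcl1 (0.20) and Bid (0.11) were above both CT libraries, and Bax (-0.37) was below both, so 6 members were above and 1 below where 35.1% and 34.9% of genes were. In T2DM Ly6Clow MCs, Bid (0.41), Bak1 (0.22) and Bax (0.20) were above both CT libraries, whereas Bcl2a1b (-0.64), Bcl2a1d (-0.47), Bcl2l11 (-0.31), Bcl2 (-0.27) and Mcl1 (-0.13) were below both, so 3 members were above and 5 below where 34.5% and 37% of genes were. The T1DM library had the highest and the T2DM library the lowest NK cell sum of the Ly6Clow libraries, 9.57 and 7.02 against 9.13 and 9.09 in CT. The neutrophil sum was 6.96 in T2DM against 4.91 and 4.92 in CT Ly6Clow MCs. The platelet sum was 9.60 in T1DM and 7.79 in T2DM against 8.38 in both CT libraries, and the sum of 5 dendritic cell genes was 7.73 and 7.79 against 6.88 and 6.98. The part of these cells in the Ly6Clow values was not tested.

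**Figure D4:**
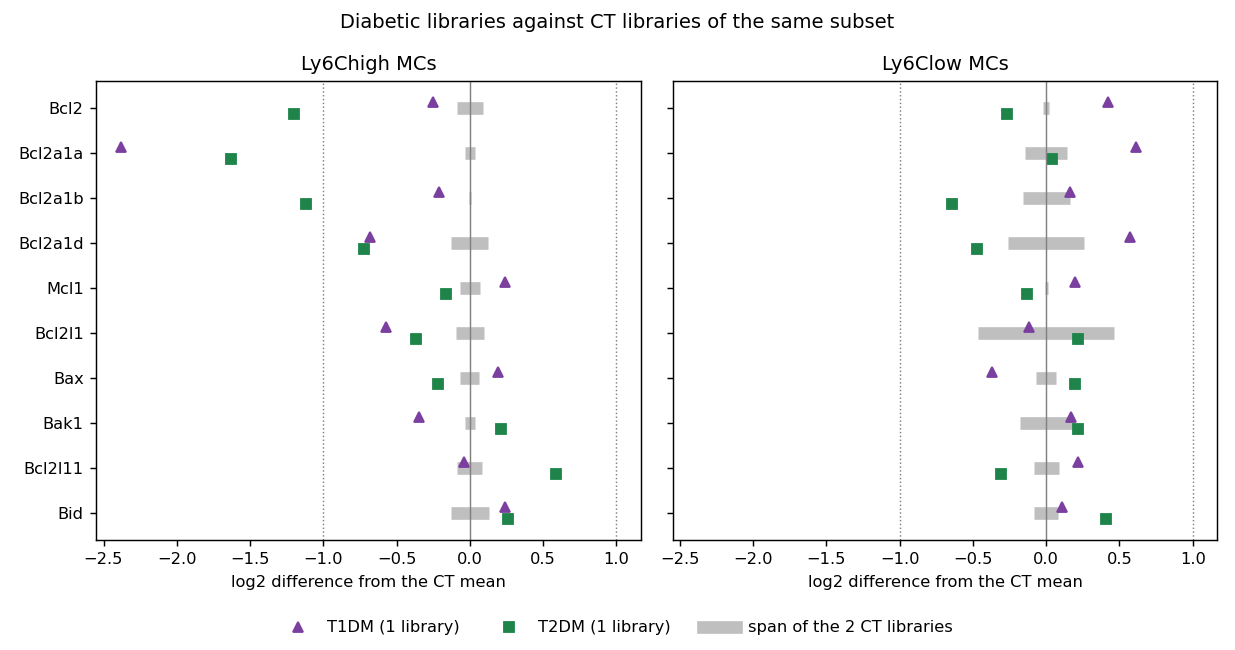
Difference of the 1 T1DM (purple triangle) and 1 T2DM (green square) library from the mean of the CT libraries of the same subset (horizontal axis, log2) for each BCL2 family gene, with Ly6Chigh MCs on the left and Ly6Clow MCs on the right. Grey bars span the 2 CT libraries, and dotted lines mark 2-fold, which Bcl2, Bcl2a1a and Bcl2a1b pass downward in T2DM and Bcl2a1a in T1DM Ly6Chigh MCs.

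The subset difference was present in each mouse group. Within T1DM mice Bcl2 was -2.64, Bcl2a1a -4.32, Bcl2a1b -3.11 and Bcl2a1d -3.00 as Ly6Chigh minus Ly6Clow in log2, and within T2DM mice the same genes were -2.90, -3.00, -3.22 and -2.0. With 1 added on the linear scale, Bcl2a1a was -3.36 in T1DM and -2.42 in T2DM mice. The summed A1 value, which does not depend on how reads were split among the A1 genes, was -3.19 and -2.56. Bax was past 2-fold in T1DM (1.15) and Bcl2l11 in T2DM mice (1.65) with Ly6Chigh above. In each diabetic model 1 member was thus past 2-fold with Ly6Chigh above and 4 with Ly6Clow above. Over all genes, 11% and 16.8% were in T1DM and 11.3% and 17.8% in T2DM mice. Those with Ly6Clow above include the A1 genes, which are near-copies of each other.

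Whether the subset difference itself changed with diabetes was tested as an interaction, in which limma called no gene (0%), with 1084 genes at an unadjusted p under 0.05. Bcl2a1a was the only member among them. Its subset difference in diabetic minus that in CT mice was -2.33 log2 units (SE 0.55, 95% interval -3.60 to -1.06), which did not pass the correction over all genes (adjusted p = 0.59). The value was -1.71 with 1 added on the linear scale, -1.67 without the T1DM libraries and -2.99 without the T2DM libraries. It also depends on how reads were split among the A1 genes. Their sum was 4.56 and 4.42 in CT Ly6Chigh against 6.47 and 6.58 in CT Ly6Clow MCs. The subset difference of the sum was -3.19 in T1DM and -2.56 in T2DM mice, and its change with diabetes was not tested. For Bcl2 the change was -0.80 (95% interval -1.90 to 0.30, adjusted p = 0.845), and for Mcl1 it was 0.00 (-0.55 to 0.55).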

How the data were processed

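RNA-Seq of sorted blood MCs was analysed for 8 libraries in 6 groups taken from the sample labels. The study describes more libraries, which were not analysed here. Per the labels, the authors used R (3.6.1) with tximport (1.12.3) to bring Kallisto (0.45) estimates to gene level, name mm10 as build, and deposited normalized log2 values for 16486 genes. The methods name counts and TPM and 40000000 reads per sample, but which of these units was normalized, how, and with what offset is not given in the sources used here.

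The tests used limma 3.58.1 (lmFit, eBayes with trend) in R 4.3.3 on the deposited log2 values without further filter, with Benjamini-Hochberg adjustment over all genes, and calls at an adjusted p under 0.01 and an absolute log2FC above 1. Comparisons with 1 library on a side have no test. The limma script was tested on simulated data. Named genes were all members, up to 3 called genes with the largest log2FC per list, and the 3 genes most like Bcl2. Naip2 and 6 regulators were named outside this rule. So were Nr4a1, Itgal, Cx3cr1 and Ace, the T cell genes other than Lck and Lef1, and genes that overlap members. Members and lists were chosen with earlier results of these data known. Alternatives were a low-value filter (mean log2 above 1), 1 added on the linear scale, quantile normalization, equal linear sums, no variance trend, an adjusted p of 0.05, a replicate block, permutation within mouse groups for the A1 sum and left-out libraries. Sequences came from GENCODE M21 and RefSeq (GRCm38.p6), in which 10 of 10 members matched. Tables and figures were made with Python 3.11.15, pandas 2.3.3, numpy 2.4.6, scipy 1.17.1 and matplotlib 3.10.9.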

Additional observations from a re-analysis of the deposited data

Results flagged for a closer look

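The following members were on opposite sides of both CT libraries in a pair of diabetic libraries. None of these differences was tested, since each rests on 1 library against 2, and many genes show such a pattern. Values are log2 differences from the CT mean of the same subset.

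Between the subsets of T1DM mice, with Ly6Chigh given first, Bcl2 was -0.25 and 0.42, Bcl2a1a -2.38 and 0.61, Bcl2a1d -0.68 and 0.57, and Bax 0.19 and -0.37. These were 4 of 10 members, where 29.2% of all genes lay on opposite sides. Between the subsets of T2DM mice, Bcl2l11 was 0.59 and -0.31 and Bax -0.22 and 0.20, or 2 of 10 members against 27.9% of all genes.

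Between the models in Ly6Chigh MCs, with T1DM given first, Mcl1 was 0.24 and -0.16, Bak1 -0.35 and 0.21 and Bax 0.19 and -0.22, or 3 of 10 members against 25.9% of genes. In Ly6Clow MCs, Bcl2 was 0.42 and -0.27, Mcl1 0.20 and -0.13, Bcl2a1d 0.57 and -0.47, Bcl2l11 0.22 and -0.31, and Bax -0.37 and 0.20, or 5 of 10 members against 24.2%.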

How the results depend on the processing

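Over mouse groups, Bcl2, Bcl2a1b and Bcl2a1d were called in 13 of 13 settings and Bcl2a1a in 9. In CT mice, 581 genes (346 higher and 235 lower in Ly6Chigh MCs) and 2 members were called. The count of genes was 1089 (619 and 470), with 3 members, with the low-value filter and 1936 (834 and 1102), with 4 members, at an adjusted p of 0.05. Quantile normalization gave 349 higher and 343 lower, and equal linear sums gave 207 and 360. Over mouse groups that last split was 503 and 1769 against 886 and 1115. No gene and 0 members were called in CT mice by eBayes without trend, with the replicate block, or without any single CT library (0 to 0), while 4651 to 5810 genes had an unadjusted p under 0.05 there, against 6207 in the reported fit. Deviations of same-numbered CT libraries correlated at 0.00892 across genes. With only 2 libraries per subset, this value cannot show whether the numbers 1 and 2 mark pairs. With the block over mouse groups 1823 genes and the same 4 members were called. Without one CT library, the A1 sum differed by -2.63 to -2.43 (exact permutation p = 0.0571, the smallest possible), and with labels exchanged within mouse groups, an addition after seeing the data, it was -2.46 (exact permutation p = 0.0833, the smallest possible). Diabetic against CT gave 0 to 1 genes without one CT library, with the 1 gene without CT Ly6Clow replicate 1, and 30 without the T1DM libraries, and the interaction gave 3 at an adjusted p of 0.05.

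Uncalled values changed sign as follows. Bcl2l1 over mouse groups was -0.0037 with equal linear sums. In diabetic against CT, Mcl1 was -0.0003 with quantile normalization, -0.017 with equal linear sums and -0.15 without T1DM, Bak1 ran from -0.037 (without CT Ly6Clow replicate 2) to 0.11 without one CT library and was -0.088 without T2DM, and Bcl2 was 0.09 without T2DM. In the interaction without one CT library, Mcl1 ran from -0.066 (without CT Ly6Chigh replicate 2) to 0.071, Bid from -0.14 to 0.12 (without CT Ly6Chigh replicate 2) and Bax from -0.0015 (without CT Ly6Clow replicate 2) to 0.14. There Mcl1 was -0.032 and Bax -0.42 without T1DM, Bcl2l11 -0.26 and Bid 0.13 without T2DM, and Mcl1 -0.026 with equal linear sums. The cause was not tested.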
